A study of Caenorhabditis elegans with 2 samples.

Results

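Binding of NHR-2 was examined at 10 genes that encode GATA factors of the endomesoderm and the epidermis, out of 19973 protein-coding genes. The genes were listed by name, with no threshold on signal. The endomesoderm genes were med-1, med-2, end-1, end-3, elt-2 and elt-7, and the epidermal genes were elt-1, elt-3, egl-18 and elt-6. ChIP-seq, the sequencing of DNA that is immunoprecipitated with a protein, gave lists of peaks and of candidate regions for NHR-2. The chromatin came from whole embryos of mixed stages from strain OP99, with both sexes pooled and their age given as unknown. These animals carried unc-119(ed3) on chromosome III and wgIs99, an insertion that targets nhr-2. The labels give the immunoprecipitated protein as eGFP-nhr-2 in 1 field and the antibody as nhr-2 in another. There was 1 group of 2 biological replicates, and control libraries and animals without the insertion were not analysed here. Chromatin of all embryonic cells was mixed, so signal from few cells and weak signal in many cells cannot be told apart.

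GATA factors are zinc-finger proteins that bind DNA words built around GATA. In the C. elegans embryo the maternal factor SKN-1 turns on med-1 and med-2 in the endomesoderm precursor. The MED proteins help to turn on end-1 and end-3 in the endoderm lineage, and these in turn start elt-2 and elt-7, which keep intestinal genes on. ELT-1 specifies the epidermal fate, ELT-3 acts in epidermal differentiation below it, and EGL-18 and ELT-6, encoded by neighbouring genes, act in the seam cells of the lateral epidermis. NHR-2 belongs to the nuclear hormone receptors, another zinc-finger family of transcription factors.

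The authors deposited a list of 1861 peaks thresholded on reproducibility between the replicates, of which 1843 lay on the nuclear chromosomes. They also deposited 30000 candidate regions for the series and 30000 for each replicate. The series candidates are labelled as peaks and background, so a region below the thresholded list is not by itself evidence of binding. Each region has a signal, the authors' own enrichment score, used here only to describe and rank regions within a list. Rank 1 is the strongest region of a list. Thresholded peaks were the 1861 strongest series regions, with signals of 51.6 and above and a median of 83.3, whereas the median of the whole series list was 17.6 and its lowest signal 12.1. The lists give no read numbers, so depth is unknown. At nhr-2 itself there were 4 thresholded peaks, the strongest with a signal of 2151 and rank 2 in the series. The best rank of any candidate at nhr-2 was 1 in replicate 1 and 2 in replicate 2. Whether the insertion that targets nhr-2 added to the signal there was not tested. A region was assigned to a gene when its summit lay in the gene body or within 5 kb on either side, and 1 region could belong to more than 1 gene.

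Only elt-1 and egl-18 of the 10 genes held thresholded peaks, 3 in all. Their sequences are printed first, followed by the 3 next strongest regions of the egl-18 and elt-6 windows, which ranked 2037 to 3003 and so fell below the thresholded list. Each sequence is 151 bases of the plus strand centred on the summit, from the RefSeq genome of WBcel235, the assembly of build ce11, which the files use. Capitals mark words found by a search on both strands for 6 words. AGGTCA is a core site of nuclear receptors. The repeat GAGAGA was also searched. CAGGTG is an E-box. The GATA words searched were AGATAA and also TGATAA. Sites bound by MED proteins contain AGTATAC. A word on the minus strand appears as its reverse complement.
elt-1 intron, stronger peak, chrIV:9619016-9619166: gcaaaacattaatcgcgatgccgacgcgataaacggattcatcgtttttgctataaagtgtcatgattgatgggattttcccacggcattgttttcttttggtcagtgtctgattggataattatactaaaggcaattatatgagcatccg
elt-1 intron, weaker peak, chrIV:9617544-9617694: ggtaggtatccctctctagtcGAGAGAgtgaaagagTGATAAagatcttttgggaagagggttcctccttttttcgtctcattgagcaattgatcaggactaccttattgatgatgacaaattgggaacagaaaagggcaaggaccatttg
egl-18 upstream peak, chrIV:1897731-1897881: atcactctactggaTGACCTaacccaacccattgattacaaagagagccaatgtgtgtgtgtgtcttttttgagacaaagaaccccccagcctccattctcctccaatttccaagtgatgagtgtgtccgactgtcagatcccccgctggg
egl-18 intron, upstream of elt-6, chrIV:1916352-1916502: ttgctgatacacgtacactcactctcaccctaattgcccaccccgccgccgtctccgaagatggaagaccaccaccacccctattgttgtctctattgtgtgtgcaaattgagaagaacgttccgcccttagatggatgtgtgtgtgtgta
egl-18 upstream region, chrIV:1898246-1898396: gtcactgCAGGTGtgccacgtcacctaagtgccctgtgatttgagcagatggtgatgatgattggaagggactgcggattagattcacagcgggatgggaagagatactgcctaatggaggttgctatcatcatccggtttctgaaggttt
egl-18 intron region, chrIV:1908689-1908839: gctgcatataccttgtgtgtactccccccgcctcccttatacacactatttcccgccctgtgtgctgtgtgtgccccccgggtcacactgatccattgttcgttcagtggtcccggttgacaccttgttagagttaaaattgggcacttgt
None of these windows overlapped an annotated exon. Their GC content ran from 39.1% in the stronger elt-1 peak to 53.0% in the egl-18 intron region. The median was 45% over the 1843 thresholded peaks, 31.8% over the weaker series regions, and 33.1% over the 151 bases upstream of protein-coding 5′ ends.

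Thresholded peaks stood at 2 of the 4 epidermal genes and at 0 of the 6 endomesoderm genes. The same rule gave a peak to 3143 of 19973 protein-coding genes, or 15.7%. Windows differ in length, because they follow the gene body: the median was 11.6 kb for the endomesoderm genes, 15.8 kb for the epidermal genes and 12.0 kb for all genes. Among genes with a window within the length range of the endomesoderm genes, 12.7% had a peak. Among genes within the range of the epidermal genes, 21.8% had one. With equal windows of 5 kb on either side of the 5′ end, a choice made after seeing the data, 13.0% of genes had a peak and the counts stayed at 0 and 2. No test was made, because the genes are few and are not replicates of a condition.

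The strongest series region of each gene orders the set. Strongest signals were 66.9 at egl-18, 64.0 at elt-1, 48.5 at elt-6, 37.7 at end-3, 25.8 at med-2, 20.6 at elt-3, 18.2 at med-1 and 14.6 at elt-7. No series region lay in the windows of end-1 and elt-2, which are therefore listed at 0. The median was 16.4 over the 6 endomesoderm genes, 56.3 over the 4 epidermal genes and 23.7 over all protein-coding genes. The groups overlapped, since end-3 and med-2 stood above elt-3. The list gives no spread for a signal, so neighbours in this order cannot be told apart by it, and the ranks in each replicate are given in its place.

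**Figure D1:**
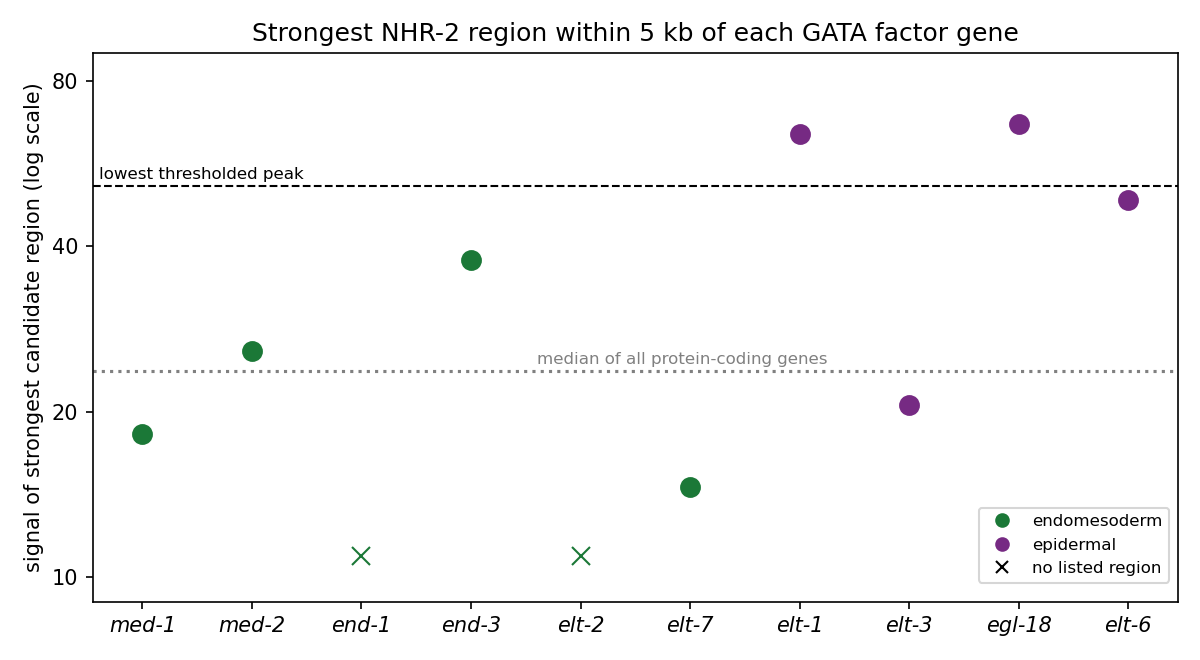
Strongest series signal (log scale) in the window of each GATA factor gene, with crosses for genes with no series region, endomesoderm and epidermal genes in separate colours and lines for the weakest thresholded peak (51.6) and the median of all protein-coding genes (23.7). Only egl-18 at 66.9 and elt-1 at 64.0 lie above the thresholded level, and end-1 and elt-2 have no series region.

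Across the windows there were 37 distinct series regions, 10 at the endomesoderm genes and 27 at the epidermal genes. Series regions stood in the windows of 8 of the 10 genes, where 82.9% of protein-coding genes had at least 1. Per 10 kb of window, with a shared region and its window counted for each gene, there were 1.45 regions at the endomesoderm genes, 4.24 at the epidermal genes and 2.79 over all genes. By gene the number per 10 kb ran from 0 at end-1 and elt-2 to 5.23 at elt-1. Counted in the same way, 1 of 10 endomesoderm regions and 7 of 30 epidermal regions ranked within the first 5000 of the series, and 17.1% did over all genes. The nearest 5′ end belonged to another gene for 8 of 10 endomesoderm regions and 13 of 30 epidermal regions, and for 62.4% over all genes. For some egl-18 regions that other gene was elt-6, itself listed. Of the 27 distinct epidermal regions, 8 had their nearest 5′ end at a gene outside the listed set. Of the distinct endomesoderm regions 5 lay inside another protein-coding gene, 4 between genes and 1 in a coding exon. Of the epidermal regions 16 lay between genes, 9 in introns of the listed genes, 1 in an untranslated region and 1 inside another gene.

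elt-1 (WBGene00001249, chrIV:9614995-9620280, plus strand) encodes the factor that specifies the epidermal fate, and it held both of its thresholded peaks in introns. The stronger summit lay at 9619091, 4096 bp downstream of the annotated 5′ end, with a signal of 64.0. It ranked 1367 in the series, 3174 in replicate 1 and 1063 in replicate 2. A short elt-1 transcript starts 247 bp downstream of it, and the nearest 5′ end of a gene is that of W09C2.7. The weaker summit lay at 9617619, 2624 bp into the gene, and its signal was 59.1, with ranks of 1529, 1738 and 2540 in the same lists. Which of the peaks ranked higher therefore differed between the replicates. Upstream of elt-1 there were 4 weak regions, with signals from 17.1 to 25.5, and the one nearest the 5′ end lay 38 bp upstream with a signal of 17.1. That region had no candidate in replicate 1 and rank 28058 in replicate 2. Beyond the window, 7924 bp upstream of elt-1, lay a peak with a signal of 192 and rank 251, whose nearest 5′ end is that of aat-1, at 5376 bp. Its ranks were 299 in replicate 1 and 221 in replicate 2, above both intronic peaks.

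**Figure D2:**
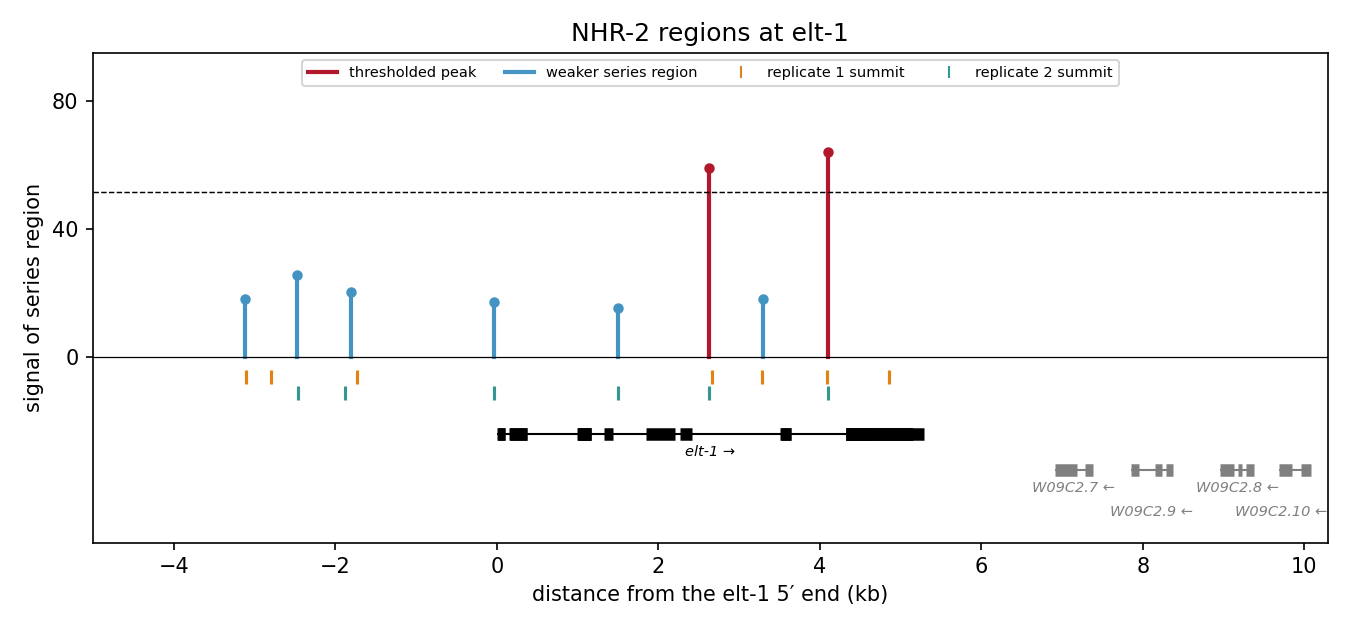
Signal of each series region around elt-1 (vertical axis) against the distance of its summit from the elt-1 5′ end in kb (horizontal axis), with gene models to scale, thresholded peaks and weaker regions in separate colours, ticks for replicate summits and a dashed line at the weakest thresholded signal. Both thresholded peaks, at 64.0 and 59.1, lie inside the gene, while the upstream regions reach 25.5.

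egl-18 (WBGene00001186, chrIV:1902322-1917840, plus strand) and elt-6 (WBGene00001253, chrIV:1917977-1921643, plus strand) encode seam cell factors and lie 136 bp apart. They share 3 series regions, so their values are not independent. The thresholded peak of egl-18 had its summit at 1897806, 4516 bp upstream of the gene, with a signal of 66.9. It ranked 1298 in the series, 1111 in replicate 1 and 1041 in replicate 2, and the replicate summits lay 26 and 13 bp from it. The 4516 bp are counted from the longest of 3 annotated transcripts, and the next transcript start lies 15640 bp from the summit. A next region at 1898321, 4001 bp upstream of the gene, had a signal of 44.7 and ranked 2330 in the series, 1947 in replicate 1 and 14922 in replicate 2. Inside egl-18, an intronic region at 1908764 had a signal of 37.6 and ranked 3003, with 2129 in replicate 1 and 14693 in replicate 2. Replicate 1 thus placed both regions far higher than replicate 2 did, while the thresholded peak held a like rank in both. The weakest egl-18 regions, with signals of 14.1 and 12.2, lay in introns and had no candidate in either replicate.

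The region of highest signal in the elt-6 window lay at 1916427, in an egl-18 intron and 1550 bp upstream of elt-6. Its signal of 48.5 fell short of the lowest thresholded signal of 51.6, and its rank was 2037 in the series. It ranked 3342 in replicate 1 and 1811 in replicate 2, so replicate 2 alone placed it among its 1861 strongest regions. Of the other shared regions, one at 1917562 had a signal of 26.0 and lay 415 bp upstream of elt-6. The other, in an elt-6 intron at 1920433, had a signal of 17.6. The edge of the window also falls within this locus. A stronger peak, with a signal of 115 and rank 581, lay 5964 bp upstream of egl-18, outside the 5 kb limit, and the thresholded peak at 4516 bp lay inside it. That outer peak ranked 441 in replicate 1 and 885 in replicate 2, and its nearest 5′ end was that of egl-18.

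**Figure D3:**
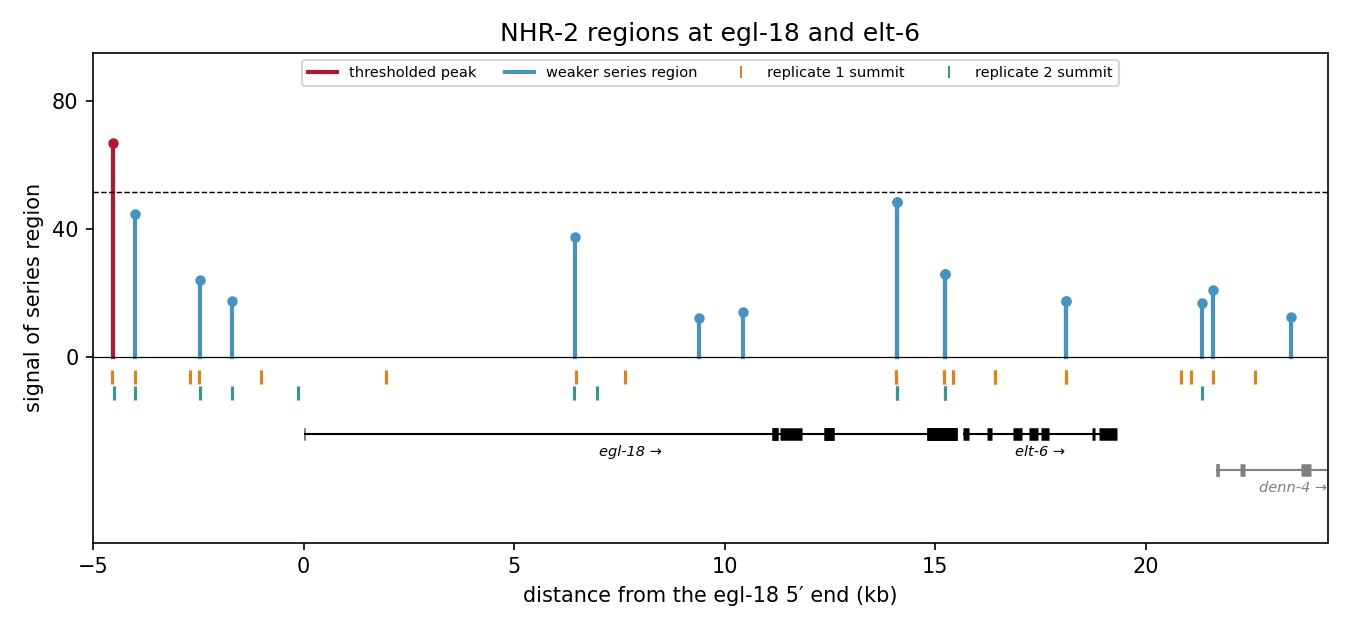
Signal of each series region over egl-18 and elt-6 (vertical axis) against the distance of its summit from the egl-18 5′ end in kb (horizontal axis), with gene models to scale, ticks for replicate summits and a dashed line at the weakest thresholded signal. The peak at 66.9 and the region at 44.7 lie side by side upstream of egl-18, and the region at 48.5 lies just before elt-6.

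elt-3 (WBGene00001251, chrX:13934874-13941216, plus strand), which acts in epidermal differentiation, held 6 series regions and none of them was thresholded. Its highest signals were 20.6, at 1613 bp upstream of the 5′ end, and 20.5, at 320 bp beyond the 3′ end. The first had no candidate in replicate 1 and rank 5253 in replicate 2. The second ranked 5405 in replicate 1. Its overlapping candidate in replicate 2 ranked 26253, with a summit 324 bp away in an untranslated region of elt-3. Neither was therefore high in both replicates. The other 4 regions had signals from 14.5 to 20.0. A thresholded peak with a signal of 76.4 lay 7077 bp beyond the gene, and 817 bp from the 5′ end of alg-1, an Argonaute gene.

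Among the endomesoderm genes the highest signal stood at end-3 (WBGene00001311, chrV:14014695-14015980, plus strand), which acts in endoderm specification. Its summit at 14012441 lay 2254 bp upstream of end-3, inside aip-1 and 108 bp from the aip-1 5′ end. The signal was 37.7, with rank 2998 in the series, 4009 in replicate 1 and 4882 in replicate 2. A region at the end-3 5′ end itself, 16 bp into the gene and in a coding exon, had a signal of 12.5 and rank 28375. The overlapping candidate of replicate 1 ranked 11103, with a summit 110 bp away, and replicate 2 had none. The other regions of the end-3 window lay in ddx-17, with signals of 14.8 and 12.6. end-1 (WBGene00001310, chrV:13985128-13987074, plus strand), its partner gene 27620 bp away, had no series region. Its replicate candidates ranked 22103 at best in replicate 1 and 17547 in replicate 2.

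med-1 (WBGene00003180, chrX:12430609-12431133) and med-2 (WBGene00003181, chrIII:6884503-6885027), both on the plus strand, are near-identical genes of the first zygotic step. Their 525 bases differed at 13 positions, an identity of 97.5%, and 53.8% of the 32-base words in each gene body occurred elsewhere in the genome. A read that lies wholly in a repeated stretch cannot be assigned to 1 place, and whether this affected the signal there was not tested. In the full windows the repeated share was 3.49% for med-1 and 4.79% for med-2. Over the listed genes it ran from 0.0622% at end-3 to 9.33% at elt-7, with 7.31% at elt-1. The single series region of med-1 lay 1909 bp upstream, with a signal of 18.2 and rank 13921. It had no candidate in replicate 1, and its candidate in replicate 2 ranked 26666, with a summit 202 bp away. med-2 had 3 regions, the strongest at 6889534 with a signal of 25.8 and rank 6047. That summit lay 30 bp from the 5′ end of brd-1. Replicate 2 had the same summit, with rank 3321. The overlapping candidate of replicate 1 ranked 9314, but its summit lay 258 bp away, near the region at 19.3. The other med-2 regions, at 22.2 and 19.3, lay inside brd-1 and 22 bp from the 5′ end of K04C2.2.

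At the genes of the last step no signal passed 14.6. elt-2 (WBGene00001250, chrX:10481240-10483441, plus strand), which maintains the intestinal fate, had no series region. Replicate 1 listed 4 weak candidates there, ranked 17157 at best, and replicate 2 listed none. elt-7 (WBGene00015981, chrV:4770670-4773086, plus strand), its partner, had 2 series regions with signals of 14.6 and 13.4. The former lay 484 bp from the 5′ end of C18G1.1 and had no candidate in either replicate. The nearest thresholded summit lay 19 kb from elt-2 and 39.1 kb from elt-7. Over the 6 endomesoderm genes this distance ran from 12.7 kb at med-2 to 52.5 kb at end-3, where the median of all protein-coding genes was 28.3 kb. Genes on X held a peak in 24.0% of cases, and the 3 listed genes on X, med-1, elt-2 and elt-3, held none.

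**Figure D4:**
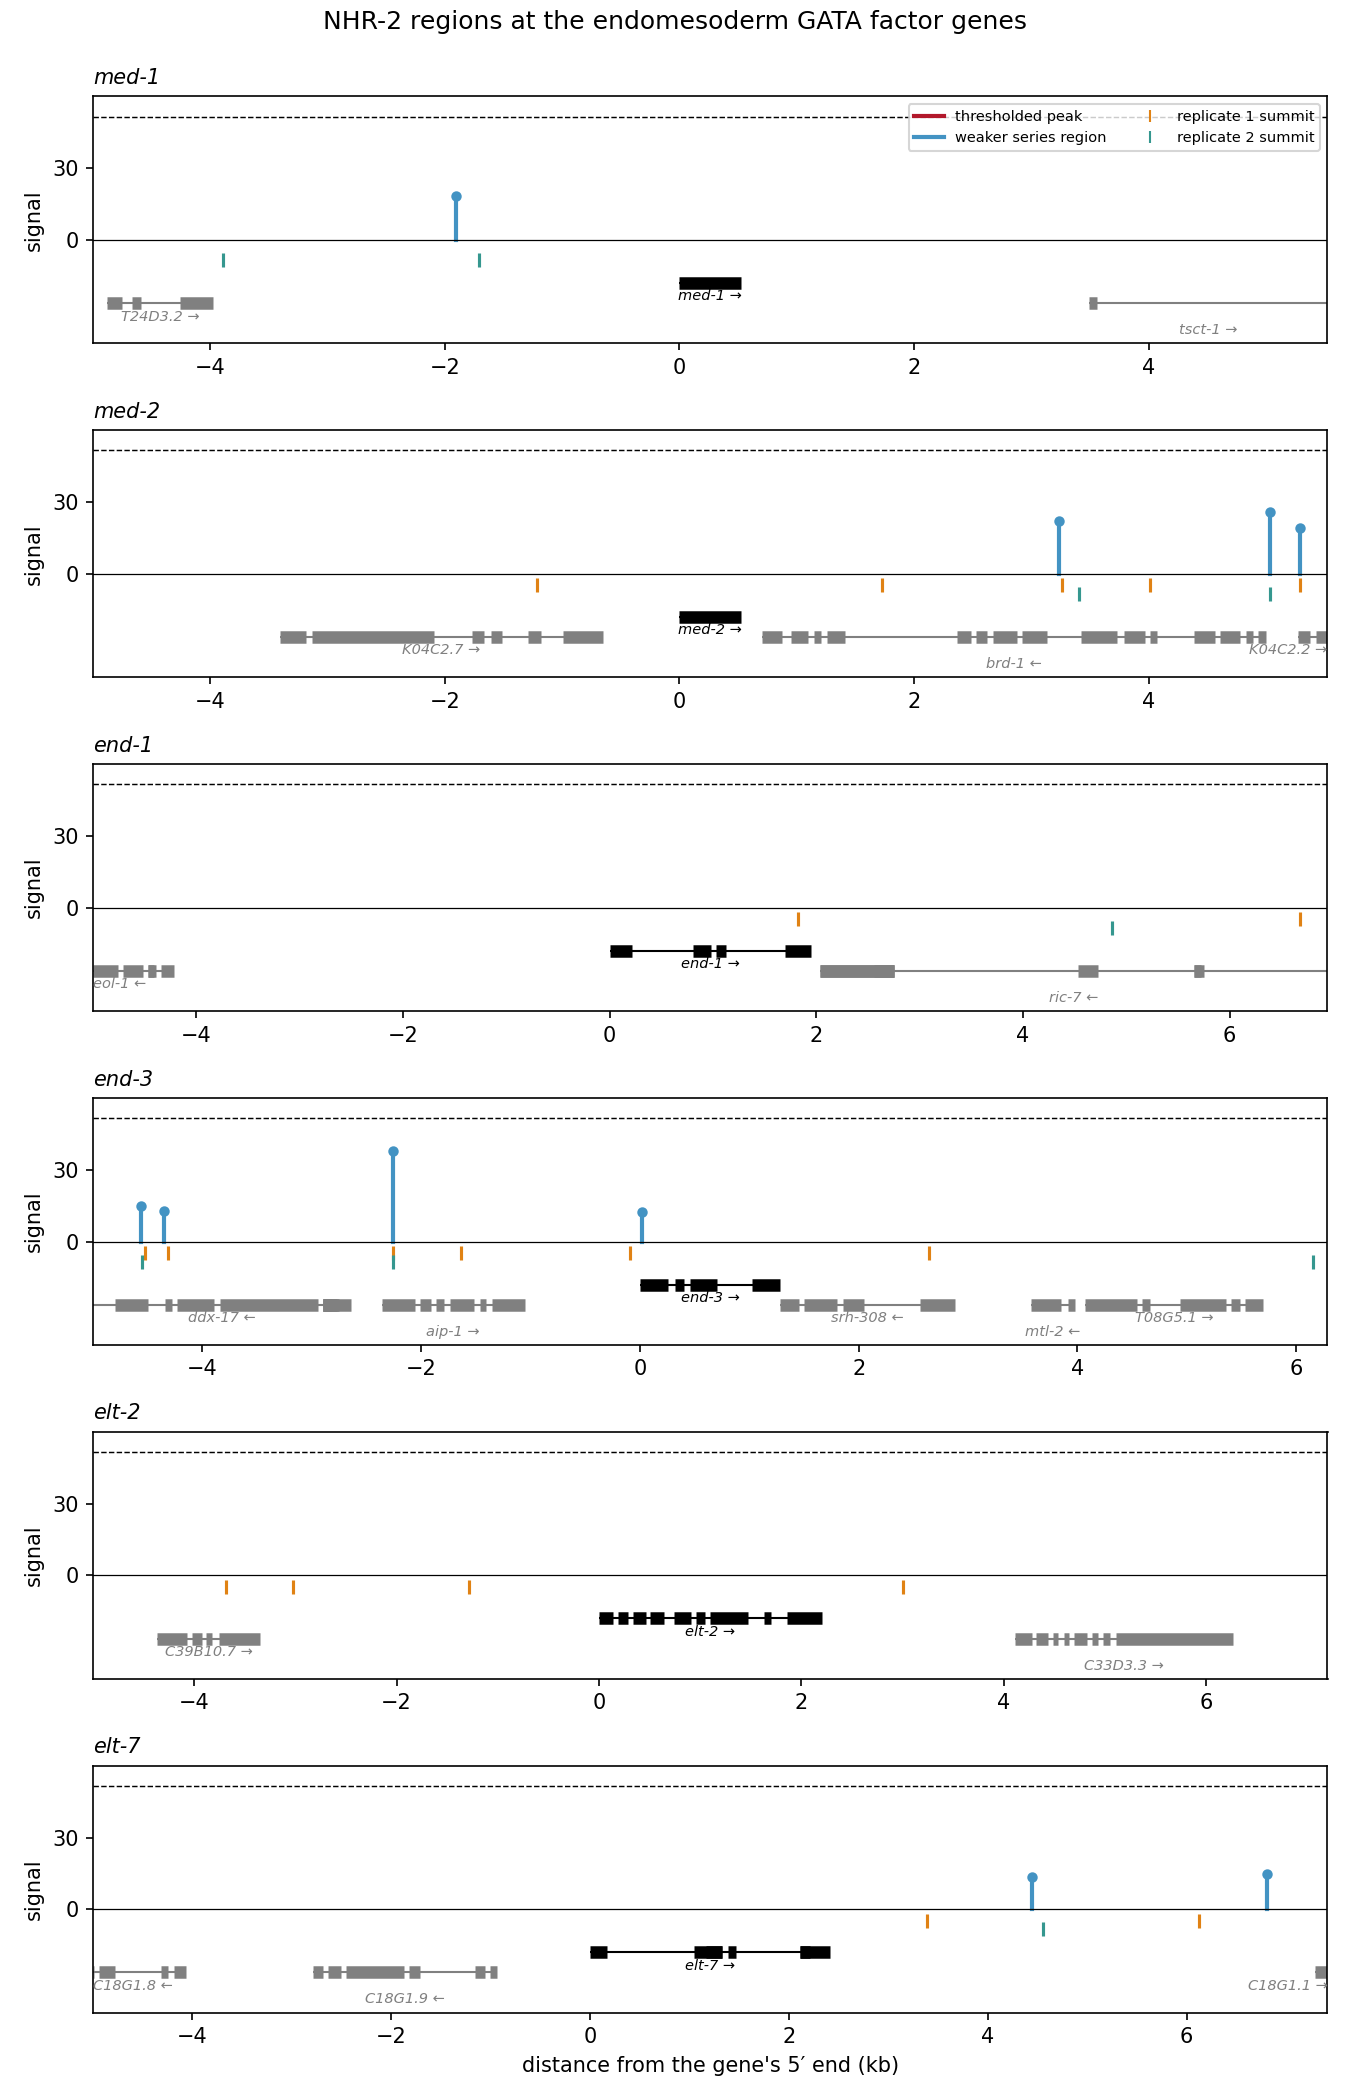
Signal of each series region (vertical axis) against the distance of its summit from the gene's 5′ end in kb (horizontal axis), with 1 panel for each endomesoderm gene ticks for replicate summits and a dashed line at the weakest thresholded signal. No region reaches the line of 51.6, and the highest is the one upstream of end-3 at 37.7.

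Of the 37 distinct regions, 19 were overlapped by a candidate of both replicates, 7 by replicate 1 only, 7 by replicate 2 only and 4 by neither. Some neighbouring series regions, such as those at 25.8 and 19.3 near med-2, were overlapped by the same replicate candidate. Among the 19, replicate 1 ranked 10 higher and replicate 2 ranked 9 higher. The replicate summits of these 19 regions lay a median of 40.0 bp apart, with a range of 6 to 340 bp. Only 10 of the 19 had them within 50 bp. For the thresholded peaks the distance was 6 to 39 bp. Replicate 1 had more candidates than replicate 2 in the windows of 9 of the 10 genes, med-1 being the exception, where 39.3% of all genes had more in replicate 1. In all, the endomesoderm windows held 19 distinct candidates in replicate 1 and 9 in replicate 2, and the epidermal windows 34 and 19. Over all genes the median was 3.00 in each replicate. Since each list ends at 30000 regions, a count depends on how the other regions of that list ranked.

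When the strongest 1861 regions of a single replicate stood in for the thresholded list, replicate 1 gave regions to elt-1 and egl-18, where 15.4% of all genes had one. Replicate 2 gave them to elt-1, egl-18 and elt-6, where the share was 17.0%. Neither replicate gave one to an endomesoderm gene. With a gene that has no candidate placed after the last rank, the median best rank of the endomesoderm genes was 16052 in replicate 1 and 11834 in replicate 2. It was 2540 and 1437 for the epidermal genes, and 7119 and 7013 over all genes. The group medians thus stood in the same order in both replicates.

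**Figure D5:**
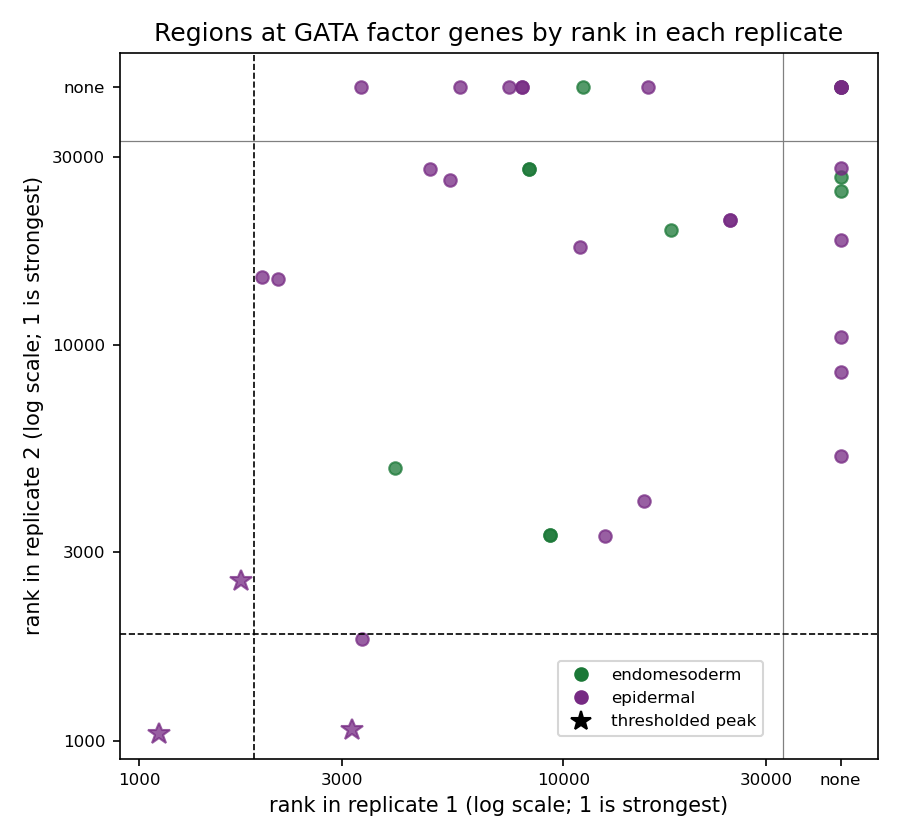
Rank in replicate 1 (horizontal axis, log scale) against rank in replicate 2 (vertical axis, log scale) for the 37 regions at the GATA factor genes, with the groups in separate colours, rank 1 the strongest, stars for thresholded peaks, dashed lines at rank 1861, and regions without a candidate placed at "none". The egl-18 peak, at 1111 and 1041, lies closest to the strong corner, and the end-3 region, at 4009 and 4882, lies outside both dashed lines.

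The share of regions with a GATA word depended on the word and the set. TGATAA lay within 75 bp of the summit in 4.02% of thresholded peaks, 13.1% of weaker series regions and 18% of 151-base windows upstream of 5′ ends. AGATAA lay in 9.71%, 9.18% and 12.6% of them. These words are rich in A and T, and the sets differ in GC content as given above. Whether GC content bears on these shares was not tested. Of the 3 thresholded peaks at the GATA factor genes, the weaker elt-1 peak held TGATAA and GAGAGA, the egl-18 peak held AGGTCA, and the stronger elt-1 peak held none of the words. AGGTCA stood in 17.3% of all thresholded peaks and 3.92% of weaker regions, and GAGAGA in 30.0% and 9.38%. Of the other printed regions only the one at 1898321, upstream of egl-18, held a word, CAGGTG, which stood in 14.4% of thresholded peaks and 3.78% of weaker regions. Of all 10 endomesoderm regions 2 held TGATAA and 1 held AGATAA, and of the 27 epidermal regions 6 and 3 did. AGGTCA stood in 1 region of each group, CAGGTG in 1 of each, and GAGAGA in 0 endomesoderm and 4 epidermal regions. The endomesoderm region with AGGTCA lay near med-2, with the word 17 bp from its summit, against 59 bp in the egl-18 peak. AGTATAC stood in none of the 37 regions and in 0.814% of thresholded peaks. A match describes letters only.

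Genes that act around these factors, taken from lists chosen with earlier results of these data known, are given beside the same 15.7%, without a test. Of 12 endomesoderm specification genes 7 held a thresholded peak, with strongest signals of 309 at pop-1 and 301 at pal-1, both transcription factors, 266 at lit-1, a kinase, and 230 at wrm-1, a beta-catenin. skn-1, the activator of the med genes, held none, and its strongest signal was 45.1. pop-1, pal-1, lit-1 and wrm-1 were named because their peaks were the strongest of this list. The other genes of the list without a peak were tbx-35 at 43.0, mom-2 at 34.1, pie-1 at 31.9 and ceh-51 at 21.2. Of 13 intestinal effector genes 1 held a peak, ifb-2, an intermediate filament gene, with a signal of 196 at 26 bp from the 5′ end of its neighbour F10C1.9. Of 10 epidermal and seam regulators 5 held one, among them ceh-16 at 234, nhr-25 at 181, nhr-23 at 110 and lin-22 at 101. Of 14 epidermal effector genes 8 did, led by the junction genes ajm-1 at 431, let-413 at 395, hmp-1 at 221 and dlg-1 at 201. Some of the thresholded peaks named here lay nearer to another 5′ end. It was that of arf-1 for wrm-1, C13G5.2 for ceh-16, vrp-1 for lin-22, W06F12.2 for lit-1 and C25A11.2 for ajm-1. The last 2 peaks lay inside their listed genes. Within 5 kb of the 5′ end alone, where 13.0% of genes had a peak, the numbers were 6, 1, 5 and 4. The median window was 14.6, 14.5, 15.5 and 17.7 kb in these lists, all longer than the 12.0 kb of all genes. Among other genes with a GATA-type zinc finger, egl-27 held 7 peaks, the strongest at 263, and lin-40 held 1 at 54.7, while elt-4 held none and reached 21.0.

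By rank in the series and both replicates, the genes outside the set whose strongest region was most like that of egl-18 were sms-3, with ranks of 1240, 1160 and 1183, and F13E9.11, F13E9.12 and nish-1. The last 3 share a single region, with ranks of 1340, 972 and 1106. The distance, taken over the log2 ranks in these 3 lists, was 0.206 for sms-3 and 0.217 for the others.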

How the data were processed

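ChIP-seq of NHR-2 was measured in 2 biological replicates of 1 group. Per the texts deposited with the libraries, candidate regions were derived by the authors from the alignments of each ChIP and a control. They thresholded a series list by the irreproducible discovery rate over both replicates. Each deposited region has a signal, the authors' enrichment score, and a −log10 q value, also from the authors, which was left out of all ranks. Names and versions of aligner and caller, and the value of the threshold, are not given in these sources. Depth is unknown, so signals were compared only within a list and ranks between lists. The ce11 lists were used, and lists on ce10 were not used here.

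Summits were assigned to protein-coding genes of Ensembl release 115 (WBcel235) when in the gene body or within 5 kb. A replicate rank given for a series region is that of the best-ranked replicate candidate overlapping it, whose summit can lie elsewhere. Words were searched within 75 bp of a summit on both strands. Coordinates are 1-based. Repeats were counted as 32-base words that occur more than once in the genome on either strand. Window assignment was checked on made regions with known answers. Python 3.11.15, numpy 2.4.6, pandas 2.3.3 and matplotlib 3.10.9 were used.

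No test was made: counts stand beside the same count over all protein-coding genes. The listed genes and the other gene lists were chosen with earlier results of these data known. Named genes were all 10 listed genes, nhr-2, up to 4 genes per other list with the strongest thresholded peak, the gene with the nearest 5′ end to each region described, and the 3 genes most like egl-18 in rank, of which a tie made 4. skn-1, tbx-35, mom-2, pie-1, ceh-51, elt-4 and the unthresholded values given for them were chosen after their values were seen. Alternatives were flanks of 2 and 10 kb, overlap of 1 bp in place of the summit, the stronger 930 peaks, each replicate alone, nearest 5′ end only, 150 bp for words and, chosen after seeing the data, equal windows around the 5′ end.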

Additional observations from a re-analysis of the deposited data

How the results depend on the processing

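No paired analysis was possible because there was 1 group of samples. The number of endomesoderm genes with a thresholded peak was 0 under every alternative run. With a 2 kb flank, 1 of the listed genes, elt-1, kept a peak, so that 1 epidermal gene was counted, against 9.65% of all genes, and the median strongest signal of the endomesoderm genes was 0. With a 10 kb flank 3 listed genes had one, elt-3 being added, the number of peaks rose to 6, the median signal of the epidermal genes to 95.6 and the share of all genes to 25.1%. With the stronger 930 peaks, 0 listed genes, 0 epidermal genes and 0 peaks were left, against 7.75% of all genes, so the counts rest on peaks of the weaker part of the thresholded list. Counting a summit only for the nearest 5′ end gave 6.45% of all genes and the same 2 listed genes, with 2 peaks in place of 3, since the stronger elt-1 peak went to W09C2.7. With each replicate alone, 2 to 3 listed genes, all epidermal, held 2 to 3 regions, and 15.4% to 17.0% of all genes held one. TGATAA stood in 2 of the 3 peaks within 150 bp of the summit, against 1 within 75 bp. Its share over all thresholded peaks was not computed at 150 bp, so this count cannot be set against the shares at 75 bp. Overlap by 1 bp and equal windows around the 5′ end gave the same numbers of listed genes and peaks. Signals carry no error in the lists, depth is unknown, and a region past rank 30000 would not be listed.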
